A study of Homo sapiens with 9 samples.

Results

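The response of ACHN cells to 25 nM piericidin A is described here, from 3 libraries of treated cells and 3 of cells that received 0.1% DMSO, out of 9 libraries in the series. ACHN is an established human renal carcinoma cell line, and piericidin A is a natural product that blocks respiratory complex I. The labels assign each library to 0.1% DMSO, 25 nM or 50 nM piericidin A, and they do not say whether the piericidin A cells also received DMSO or whether the 3 libraries of a group came from separate cultures. The p-values therefore measure the spread between these libraries, which may be technical. The remaining 3 libraries, from cells given 50 nM, entered the same model and serve as a second dose. How long the cells were treated, how RNA was selected and whether the libraries keep strand is not stated in the labels.

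Complex I is the entry point of electrons from NADH into the respiratory chain. It is built from subunits encoded in the nucleus and in the mitochondrial genome, and its block lowers oxygen use and the regeneration of NAD+. Low oxygen use leaves more oxygen in the cytosol for the prolyl hydroxylases that mark hypoxia-inducible factor (HIF) for degradation through VHL. Cells under protein-folding stress switch on heat shock factor 1, which drives chaperone genes of the HSP70, HSP40, HSP90 and small heat shock protein families. A separate pathway, the integrated stress response, acts through the transcription factor ATF4 on genes for amino acid synthesis and transport.

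The values are FPKM, fragments scaled to gene length and to a size for each library, as the authors deposited them. That size was 0.957 times the total recovered fragments in 25 nM replicate 3 and 1.06 times in 50 nM replicate 1. Over genes above 0 in all 9 libraries, the median ratio to each gene's geometric mean was the same in every library (1.0041). This scaling holds the median change near 0, and the balance of higher and lower genes depends on it. A gene was tested if it had at least 0.5 FPKM in at least 3 of the 9 libraries, so some genes passed through the treated libraries alone. Such genes could hardly be called lower, so the counts of any list that holds them lean toward higher. A tested gene is said to rise or fall at an adjusted p under 0.05 in limma on log2(FPKM + 0.1). Of 15541 tested genes, 8086 (52.0%) differed between 25 nM and DMSO, 4084 (26.3%) of them higher and 4002 (25.8%) lower. The 3 libraries at 25 nM lay wholly above or below the 3 DMSO libraries for 9729 genes (62.6%). Shares of this size are the background for every count below. Of the 11722 tested coding genes, 3279 were higher and 3700 lower. Most changes were small: 2507 of the risen and 2403 of the fallen genes moved by less than 0.5 on the log2 scale. At least a 2-fold change was passed by 580 risen and 259 fallen genes, of which 112 and 158 were protein-coding. With a pseudocount of 1 FPKM in place of 0.1 these counts were 146 and 79. Of the 580 and 259 genes, 155 and 23 were absent from the authors' log2 table, which keeps only genes above 0 in all 9 libraries. In bulk RNA, fewer cells that express a gene and less RNA per cell cannot be told apart.

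The libraries at 25 nM were not equally alike. Over 6770 coding genes with a mean of at least 5 FPKM, the median distance of replicate 3 from the other 2 replicates was 0.138 on the log2 scale, against 0.0661 and 0.0876 for replicates 1 and 2 and 0.0342 to 0.0387 for the DMSO libraries. The chi-square per degree of freedom over recovered fragments was 2.365 between replicates 1 and 2, and 15.69 and 17.81 between each of them and replicate 3. Depth was similar in all of them, 25006484 to 26316327 recovered fragments at 25 nM and 26806226 to 29245674 in DMSO. Without replicate 3, 7737 genes differed, of which 7249 were called in the same direction with all libraries, 837 calls were lost, 488 were gained and 0 had the opposite sign. Values without this library are given beside the results it touches.

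Replicate 3 differed from its fellows along gene length. At 25 nM as a whole, the shortest quartile of coding genes (up to 3268 bases in the authors' table) had a median log2 fold change of 0.19 and the longest quartile (7427 bases or more) one of -0.21. In the shortest quartile 1318 genes rose and 385 fell, and in the longest 379 rose and 1476 fell. Replicates 1 and 2 alone gave medians of 0.15 and -0.16, and replicate 3 lay a further 0.17 above them in the shortest quartile and 0.13 below them in the longest. AHNAK, a very long scaffold protein gene, stood at 181, 184 and 194 FPKM in the DMSO libraries and 122, 128 and 77.4 FPKM at 25 nM, so replicate 3 was lowest. UQCRQ, a short gene for a complex III subunit, stood at 16, 16 and 16.4 FPKM in the DMSO libraries and 23.8, 21.9 and 33.4 FPKM at 25 nM, so replicate 3 was highest. The fall of ZBED6, a transcription factor gene inside an intron of ZC3H11A, rested in part on this library: its values were 5.6, 5.88 and 5.99 FPKM in the DMSO libraries and 2.5, 3.38 and 0.644 FPKM at 25 nM, with a log2 fold change of -1.65 and -0.98 without replicate 3. Its limma adjusted p, 0.0215 with all libraries, was 0.052 without DMSO replicate 2 or 3. KLHL11, for an adaptor of a ubiquitin ligase, moved likewise from -1.56 to -1.08. The part of gene length, RNA quality or library preparation in the group difference was not tested, and the gene lists below differ in median length.

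**Figure D1:**
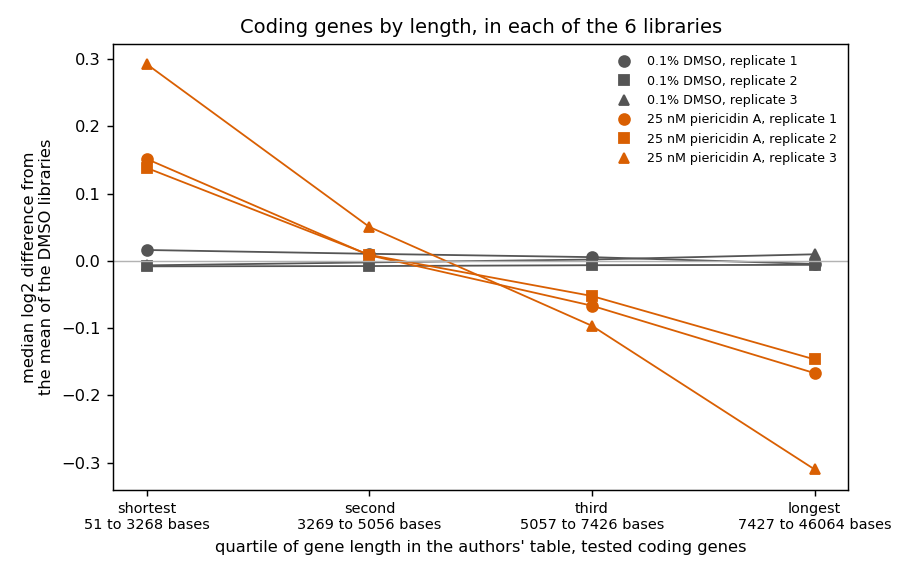
Median log2 difference of tested coding genes from the mean of the DMSO libraries (vertical axis) in 4 quartiles of gene length (horizontal axis), 1 line per library, with grey for DMSO and orange for 25 nM. All 3 libraries at 25 nM slope downward with length, and replicate 3 (triangles) spans from 0.292 to -0.310, a wider span than in the other 2 libraries.

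The labelled cell type was checked against markers. PAX8, a transcription factor of the renal lineage, ranged from 66.0 to 72.7 FPKM over the 6 libraries, and KRT18 and VIM were also well above the threshold. Of 20 markers of endothelium, leukocytes, fibroblasts and erythroid cells, 15 are in the table and 3 reached the threshold for testing. These were ACTA2 (smooth muscle actin), with 4.34 ± 0.332 FPKM in DMSO and 4.73 ± 0.39 FPKM at 25 nM (SD, n = 3), COL1A1 (a collagen chain), with 1.72 ± 0.0415 FPKM in DMSO and 1.84 ± 0.18 FPKM at 25 nM, and PDGFRB (a receptor of stromal cells), with 0.697 ± 0.0614 FPKM in DMSO and 0.403 ± 0.04 FPKM at 25 nM. PDGFRB fell (log2 fold change -0.66, adjusted p = 0.03), a fall that did not pass without any 1 of the DMSO libraries or 25 nM replicates 1 and 2 (adjusted p = 0.0524 to 0.103). ACTA2 and COL1A1 did not pass. DCN, a fibroblast marker, reached at most 0.238 FPKM, CD14 at most 0.154 FPKM, and HBB was 0 in all 6 libraries. The part of these genes' cells in the results was not tested. KDR, PTPRC, CD3E and HBA1, markers of endothelial and blood cells, have no row in the table.

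Among coding genes with a mean of at least 2 FPKM, the largest rises were in inducible chaperones. HSPA6, an HSP70 gene that is nearly silent in unstressed cells and lies at chr1:161524540-161526910 (hg38), stood at 0.467, 0.346 and 0.217 FPKM in the DMSO libraries and 31.6, 23.8 and 30 FPKM at 25 nM. It rested on 30, 22 and 15 recovered fragments in DMSO and on 1849, 1461 and 1715 at 25 nM, so the groups lay far apart (log2 fold change 6.04 ± 0.20 SE, limma adjusted p = 6.5e-07). HSPA6 was below 0.5 FPKM in every DMSO library. It was therefore tested through the treated libraries alone and could hardly have been called lower. HSPA1B stood at 4.44, 3.39 and 3.18 FPKM in the DMSO libraries and 152, 123 and 162 FPKM at 25 nM (log2 fold change 5.28 ± 0.13 SE, limma adjusted p = 1.5e-07). Its near-identical neighbour HSPA1A stood at 1.25, 0.993 and 0.856 FPKM in the DMSO libraries and 42.8, 33.7 and 37.6 FPKM at 25 nM (log2 fold change 5.08 ± 0.13 SE, limma adjusted p = 1.3e-07). The 2 genes encode the same stress-inducible HSP70, and how their shared reads were divided is not given in the sources used here. DNAJB1, the main stress-inducible HSP40 and a partner of HSP70, stood at 15.5, 14 and 14 FPKM in the DMSO libraries and 196, 157 and 204 FPKM at 25 nM (log2 fold change 3.66 ± 0.09 SE, limma adjusted p = 1.3e-07). For these 4 genes every 25 nM library lay far above the highest DMSO library. For each gene that is said below to rise or fall and is given with its 6 values, the 25 nM and DMSO libraries did not overlap.

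The promoters of these genes are shown because heat shock factors bind inverted repeats of the letters GAA. The 150 bases before the start site are given from RefSeq (GRCh38.p14), read 5′ to 3′ on the gene's strand, in lower case, with matches to GAANNTTC or TTCNNGAA on either strand in capitals. HSPA6 is on chr1:161524390-161524539 (plus strand), HSPA1A on chr6:31815393-31815542 (plus), HSPA8 on chr11:123062137-123062286 (minus), CHORDC1 on chr11:90223050-90223199 (minus) and DNAJB1 on chr19:14529272-14529421 (minus).
HSPA6: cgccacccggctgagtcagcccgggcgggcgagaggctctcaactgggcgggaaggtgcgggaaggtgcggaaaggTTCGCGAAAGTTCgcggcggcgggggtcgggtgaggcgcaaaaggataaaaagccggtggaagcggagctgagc
HSPA1A: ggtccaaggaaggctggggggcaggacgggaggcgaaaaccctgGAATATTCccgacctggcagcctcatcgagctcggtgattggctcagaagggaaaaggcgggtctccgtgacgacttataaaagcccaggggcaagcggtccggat
HSPA8: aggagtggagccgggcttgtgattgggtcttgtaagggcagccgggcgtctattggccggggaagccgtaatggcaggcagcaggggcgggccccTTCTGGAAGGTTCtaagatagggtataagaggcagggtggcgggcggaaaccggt
CHORDC1: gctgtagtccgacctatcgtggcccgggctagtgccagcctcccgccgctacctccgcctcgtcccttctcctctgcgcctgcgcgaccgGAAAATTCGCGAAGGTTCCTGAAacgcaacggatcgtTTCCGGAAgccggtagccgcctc
DNAJB1: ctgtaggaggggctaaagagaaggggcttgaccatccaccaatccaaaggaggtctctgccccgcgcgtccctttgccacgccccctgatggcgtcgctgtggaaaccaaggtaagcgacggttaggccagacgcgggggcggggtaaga

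Overlapping matches in HSPA6, HSPA8 and CHORDC1 join into runs of at least 3 GAA units, and the DNAJB1 stretch shown holds no match. Only the first listed start site of each gene was searched. Whether another start site of DNAJB1 has a match was not tested, so the gene cannot be said to lack one. In the 250 bases before the start, 11.7% of all 27305 promoters and 8.32% of the 9095 matched promoters of tested coding genes hold one of these 8-letter matches. Of the 36 matched promoters of cytosolic chaperones 10 do (27.8%). The longer form of 3 units, GAANNTTCNNGAA or TTCNNGAANNTTC, is in 0.439% of all promoters and in 4 of these 36, those of HSPA6, HSPA8, CHORDC1 and DNAJB6. DNAJB6, a constitutive J-protein taken up here only for its promoter, had a log2 fold change of 0.02 that did not pass. A match is a run of letters and not a measured binding site.

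Of the HSP70 and HSP110 genes, 5 of 10 tested members were higher and 0 lower (median log2 fold change 0.47, and 0.52 without replicate 3), beside the background of 26.3% higher. The same list had 5 higher and 4 lower with scaling to equal FPKM sums, and 5 and 1 without replicate 3. HSPA8, the constitutive HSP70 of the cytosol, rose from 157, 155 and 152 to 314, 301 and 319 FPKM (log2 fold change 1.01 ± 0.04 SE, limma adjusted p = 6.5e-07). HSPH1, an HSP110 that recharges HSP70 with ATP, rose from 10, 10 and 10.1 to 26.5, 24.9 and 22.5 FPKM (log2 fold change 1.28 ± 0.06 SE, limma adjusted p = 9.9e-07). The 5 risen genes are HSPA6, HSPA1B, HSPA1A, HSPH1 and HSPA8, and each at least doubled. Of these, HSPA6 was tested through the treated libraries alone. The other 5, such as HSPA4L with 7.96, 8.55 and 8.32 FPKM in the DMSO libraries and 8.52, 8.66 and 6.75 FPKM at 25 nM and a log2 fold change of -0.06, did not pass, and all 5 had log2 fold changes below 0, down to -0.30.

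HSP70 works with J-proteins, which bring it clients, and with nucleotide exchange factors, which release them. Of these, 9 of 15 tested members were higher and 2 lower (median log2 fold change 0.2, and 0.23 without replicate 3). DNAJA1, a major cytosolic J-protein, rose from 28.1, 27.6 and 27.8 to 48.6, 47 and 47.4 FPKM (log2 fold change 0.77), and BAG2, an inhibitor of the ubiquitin ligase that works on HSP70 clients, rose from 2.68, 2.83 and 2.81 to 3.99, 4.01 and 4.36 FPKM (0.55). BAG3, an exchange factor that links HSP70 to autophagy and a usual member of the heat shock response, stood at 17.8, 18.4 and 17.2 FPKM in the DMSO libraries and 16.8, 16.8 and 16.8 FPKM at 25 nM (-0.08, adjusted p = 0.106). It did not rise with DNAJB1 and HSPA1B. BAG5, another exchange factor, fell from 9.96, 9.32 and 10.2 to 6.51, 7.63 and 6.83 FPKM (-0.49). When the libraries were scaled to the same sum of FPKM, the median of this list was close to 0 and 5 members were higher and 5 lower.

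HSP90 matures kinases and steroid receptors with the help of co-chaperones. Here 11 of 13 tested members were higher and 0 lower (median log2 fold change 0.47, and 0.42 without replicate 3). HSP90AA1, the inducible cytosolic HSP90, rose from 152, 152 and 154 to 472, 456 and 491 FPKM (log2 fold change 1.63 ± 0.05 SE, limma adjusted p = 2.8e-07). The constitutive HSP90AB1 rose less, from 596, 583 and 593 to 767, 765 and 786 FPKM (log2 fold change 0.39). Among co-chaperones, AHSA1, which speeds the ATPase of HSP90, rose from 8.26, 8.6 and 8.63 to 18.1, 17.4 and 22.2 FPKM (1.16), CHORDC1, a zinc-binding partner, rose from 1.82, 1.88 and 1.88 to 4.46, 4.56 and 3.49 FPKM (1.11), and STIP1, the adaptor between HSP70 and HSP90, rose from 22.5, 21.8 and 23.1 to 34.2, 34.8 and 40.9 FPKM (0.7). Of the 4 tested small heat shock protein genes 3 rose and 1 fell. HSPB1 (HSP27) rose from 195, 189.5 and 185 to 508, 453 and 601 FPKM (log2 fold change 1.45 ± 0.09 SE, limma adjusted p = 5.8e-06), while HSPB8, the partner of BAG3, fell from 16.5, 16.7 and 17 to 14.1, 14.2 and 15.1 FPKM (-0.21). HSF1 itself, the factor that drives these genes, rose from 11.6, 11.1 and 10.9 to 13.9, 13.5 and 16 FPKM (0.37). All 8 subunits of TRiC, the chaperonin that folds actin and tubulin, rose, by a median of 0.31, for example CCT3 from 70.7, 69.8 and 71.8 to 96.2, 97.2 and 108 FPKM (0.5). With scaling to equal FPKM sums, 4 of the 8 were higher and 0 lower. DNAJB1 overlaps TECR in the annotation, HSP90AA1 overlaps WDR20 and HSF1 overlaps DGAT1, so reads of either gene of a pair could have been counted for the other.

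The mitochondrial chaperonin moved as well. HSPE1, its lid, rose from 8, 8.09 and 8.47 to 32.5, 28.7 and 39.7 FPKM (log2 fold change 2.01 ± 0.10 SE, limma adjusted p = 2.4e-06), and HSPD1, its barrel, rose from 172, 167 and 168 to 241, 242 and 246 FPKM (log2 fold change 0.53). The 2 genes lie head to head and overlap in the annotation, so their reads may not be fully separated. Among all mitochondrial chaperones and proteases, 10 of 17 tested members were higher and 2 lower (median log2 fold change 0.24, and 0.15 without replicate 3), against 6 and 5 with scaling to equal FPKM sums. CLPP, the protease of the matrix, rose from 14.8, 14.4 and 13.9 to 19.7, 20.2 and 22.8 FPKM (0.54), and CLPX, the unfoldase that feeds it, fell from 11.4, 10.7 and 10.4 to 7.95, 8.59 and 8.17 FPKM (-0.4). HSPA5, the HSP70 of the endoplasmic reticulum, rose from 76.9, 76.1 and 76 to 135, 126 and 136 FPKM (0.79), and of the wider list of endoplasmic reticulum chaperones and unfolded protein response genes, 12 of 24 tested members were higher and 3 lower. HERPUD1 and EDEM1, which act in degradation from that compartment, fell (log2 fold changes -0.45 and -0.46). That list's median was 0.12, and it turned to -0.08 with scaling to equal FPKM sums.

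Together, cytosolic chaperone genes held 0.620%, 0.617% and 0.621% of recovered fragments in the DMSO libraries and 1.15%, 1.09% and 1.16% at 25 nM. This is a ratio of 1.83 between the means, with no overlap. The exact permutation test over 6 libraries gave p = 0.1, the smallest it allows with 3 against 3.

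**Figure D2:**
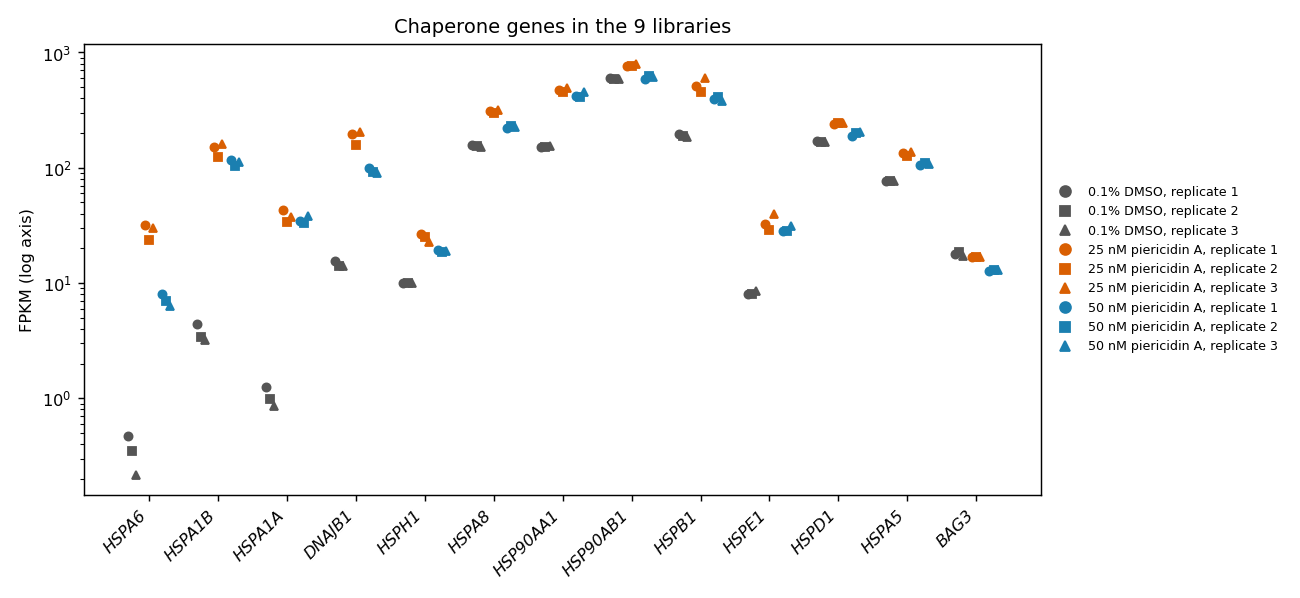
FPKM (log axis) of 13 chaperone genes in each of the 9 libraries, with grey for DMSO, orange for 25 nM and blue for 50 nM. HSPA6 and DNAJB1 are highest at 25 nM, and BAG3 does not rise at either dose.

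The 50 nM libraries show which of these levels differed by dose. Over all tested genes, 5205 (33.5%) differed between 50 nM and 25 nM, 2288 of them higher at 50 nM and 2917 lower. Of the 11722 tested coding genes 1542 were higher at 50 nM than at 25 nM and 2851 lower. These counts are the background for the dose counts below. Of the 8086 genes that differed between 25 nM and DMSO, 3122 differed between the doses. HSPA6 stood at 8.03, 7.01 and 6.37 FPKM at 50 nM, below every 25 nM library (log2 difference 50 nM minus 25 nM -1.98, adjusted p = 4.1e-04). DNAJB1 stood at 98.8, 91.8 and 90.6 FPKM (log2 difference 50 nM minus 25 nM -0.98, adjusted p = 2.8e-04). HSPA8, HSPH1 and HSPB1 were also lower at 50 nM than at 25 nM (log2 differences -0.45, -0.36 and -0.39). HSPA1A did not pass between the doses (-0.1, adjusted p = 0.575). Of the 10 tested HSP70 and HSP110 genes 5 were lower at 50 nM and 0 higher, and of the 8 TRiC genes 7 were lower.

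Beyond the chaperones, the largest coding rises were in histones, ID3, GADD45G and a chemokine. ID3, an inhibitor of basic helix-loop-helix factors and a common target of BMP signalling, stood at 10.1, 10.5 and 10.1 FPKM in the DMSO libraries and 78.4, 72.1 and 93.8 FPKM at 25 nM, with all 25 nM libraries far above DMSO (log2 fold change 2.97 ± 0.08 SE, limma adjusted p = 1.3e-07). Its relative ID2 rose from 19.8, 19.2 and 19.3 to 42.5, 41.6 and 45.9 FPKM (log2 fold change 1.15). ID1, which often moves with them, stood at 65.3, 69.2 and 64.3 FPKM in the DMSO libraries and 53.4, 57.4 and 66.2 FPKM at 25 nM, overlapping (-0.17, adjusted p = 0.085, and -0.26 with adjusted p = 0.00401 without replicate 3). SMAD6, a feedback inhibitor of the same pathway, rose from 2.98, 2.69 and 2.97 to 3.65, 3.56 and 3.91 FPKM (0.35), and NOG, for the secreted BMP antagonist noggin, fell from 76.7, 73.2 and 73.5 to 51, 57.9 and 58.7 FPKM (-0.42). Of 11 tested genes of this list 4 were higher and 2 lower, against 2 and 6 with scaling to equal FPKM sums, where SMAD6 did not pass.

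All 4 genes of the GADD45 list, growth arrest genes and a partner protein, rose. GADD45G rose from 1.79, 2.01 and 1.66 to 6.71, 5.85 and 6.24 FPKM (log2 fold change 1.73 ± 0.10 SE, limma adjusted p = 5.0e-06), GADD45B rose from 23.2, 22.5 and 24.8 to 53.3, 52.5 and 62.2 FPKM (1.25) and GADD45A rose from 111, 110.5 and 111 to 163, 155 and 168 FPKM (0.54). CXCL3, a neutrophil chemokine, rose from 28.4, 29.1 and 28.1 to 85.2, 77.3 and 85.5 FPKM (log2 fold change 1.53 ± 0.06 SE, limma adjusted p = 6.5e-07).

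**Figure D3:**
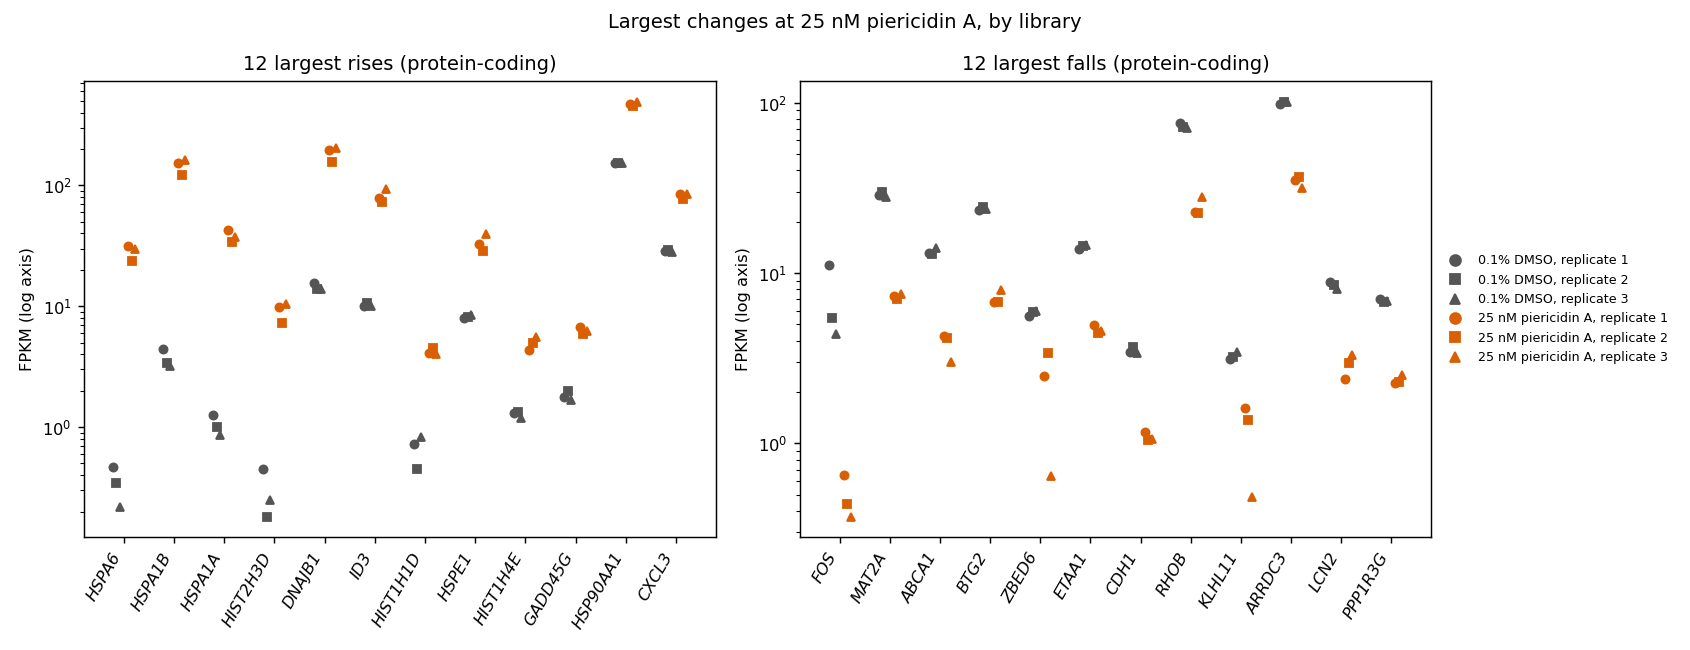
FPKM (log axis) in each DMSO (grey) and 25 nM (orange) library for the 12 coding genes with the largest rises (left) and the 12 with the largest falls (right), among genes with a mean of at least 2 FPKM and no overlap between the groups. HSPA6 rises from below 0.5 to above 23 FPKM, and replicate 3 (triangles) sits apart from its fellows for ZBED6 and KLHL11.

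Among the 12 largest coding falls, FOS, MAT2A, ABCA1, BTG2, CDH1, RHOB and LCN2 are described with their pathways. Of the others, ETAA1, for an activator of the kinase ATR at stalled replication forks, fell from 13.9, 14.4 and 14.5 to 4.93, 4.43 and 4.55 FPKM (log2 fold change -1.6 ± 0.06 SE, limma adjusted p = 6.2e-07). PPP1R3G, for a subunit that brings protein phosphatase 1 to glycogen, fell from 7.05, 6.79 and 6.88 to 2.27, 2.28 and 2.52 FPKM (log2 fold change -1.51 ± 0.06 SE, limma adjusted p = 6.5e-07). ARRDC3, an alpha-arrestin, fell from 98.5, 100.5 and 101 to 35.1, 36.7 and 31.7 FPKM (log2 fold change -1.54 ± 0.07 SE, limma adjusted p = 9.9e-07).

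Replication-dependent histone genes make messages that end in a stem-loop in place of a poly(A) tail. Of these, 25 of 42 tested members were higher and 0 lower (median log2 fold change 0.99, and 1.09 without replicate 3). Members below 0.5 FPKM in every DMSO library, such as HIST2H3D, were tested through the treated libraries alone. Such genes could hardly be called lower, so the count and the median lean upward. HIST2H3D stood at 0.449, 0.182 and 0.25 FPKM in the DMSO libraries and 9.85, 7.25 and 10.4 FPKM at 25 nM, from 5, 2 and 3 recovered fragments in DMSO and 100, 77 and 103 at 25 nM (log2 fold change 4.6 ± 0.24 SE, limma adjusted p = 4.2e-06). HIST1H1D, a linker histone, rose from 0.721, 0.449 and 0.823 to 4.07, 4.47 and 4.05 FPKM (2.52), and HIST1H4E rose from 1.32, 1.33 and 1.2 to 4.33, 5 and 5.52 FPKM (1.86). These levels are low, the copies are alike in sequence, and how shared reads were divided is not given in the sources used here. Genes for small RNAs and ribosomal RNA, most of which also lack poly(A) tails, together held 0.0138% of recovered fragments in DMSO and 0.0414% at 25 nM, a ratio of 3.0 with no overlap between the groups. Of 230 tested genes of this class 62 were higher and 14 lower, a share of higher genes close to the 26.3% of all tested genes. The part of RNA selection in these rises was not tested.

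Mitochondrial transcripts took a larger share of each 25 nM library. The messages of the mitochondrial genome held 1.66%, 1.65% and 1.45% of recovered fragments in DMSO and 2.16%, 2.46% and 3.01% at 25 nM, replicate 3 being the highest. The mitochondrial ribosomal RNAs held 0.979%, 0.974% and 0.870% in DMSO and 1.65%, 1.69% and 2.09% at 25 nM. Neither pair of groups overlapped (exact permutation p = 0.1 for both, adjusted p = 0.107 over 16 classes). With no overlap, leaving out any 1 library could not change the direction of either share.

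The 13 coding genes of the mitochondrial genome are cut from long precursors of the 2 strands, and they did not all move the same way. There, 5 of 13 tested members were higher and 1 lower (median log2 fold change 0.29, and 0.13 without replicate 3). MT-CO1, the catalytic subunit of complex IV, stood at 3327, 3192 and 2858 FPKM in the DMSO libraries and 5590, 6400 and 7705 FPKM at 25 nM (log2 fold change 1.06 ± 0.13 SE, limma adjusted p = 1.6e-04). MT-ND4, a proton-pumping subunit of complex I, stood at 1877, 1879 and 1588 FPKM in the DMSO libraries and 3032, 3526 and 4526 FPKM at 25 nM (log2 fold change 1.04 ± 0.17 SE, limma adjusted p = 0.00115). MT-ND3, another complex I subunit, stood at 1554, 1517 and 1417 FPKM in the DMSO libraries and 777, 832 and 1133 FPKM at 25 nM, with no overlap (log2 fold change -0.73 ± 0.14 SE, limma adjusted p = 0.00224, and -0.89 without replicate 3). MT-ND6, the only message from the other strand, stood at 536, 546 and 468 FPKM in the DMSO libraries and 645, 676 and 855 FPKM at 25 nM, higher with all libraries (0.48, adjusted p = 0.0314). It did not pass without replicate 3 (0.36, adjusted p = 0.123) or without any 1 of the DMSO libraries (adjusted p = 0.058, 0.0525 and 0.0978), and with scaling to equal FPKM sums the change was 0.28 (adjusted p = 0.0881). At 50 nM MT-ND3 was at 2045, 2022 and 2539 FPKM, above both other groups (log2 difference 50 nM minus 25 nM 1.28, adjusted p = 4.6e-04), and 10 of the 13 genes were higher at 50 nM than at 25 nM.

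Of the nuclear genes for complex I subunits, 29 of 35 tested members were higher and 0 lower (median log2 fold change 0.44, and 0.33 without replicate 3). The median length of these genes is 2263 bases, within the shortest quartile, whose own median was 0.19. NDUFS6, an accessory subunit with a zinc site, rose from 27.1, 26.1 and 25.6 to 41.6, 40.5 and 50.7 FPKM (log2 fold change 0.74 ± 0.08 SE, limma adjusted p = 7.7e-05). NDUFS3 and NDUFV1, core subunits of the arm that oxidises NADH, rose from 8.28, 8.04 and 7.86 to 11.8, 11.6 and 13.1 FPKM (0.59) and from 26.2, 25.1 and 24.4 to 35.4, 33 and 40.4 FPKM (0.52). NDUFS1, the longest of the core subunits of that arm, stood at 10.3, 9.88 and 10.7 FPKM in the DMSO libraries and 10.2, 10.6 and 9.87 FPKM at 25 nM and did not pass (-0.01). Of the assembly factors, 13 of 15 tested members were higher and 2 lower, against 7 and 2 with scaling to equal FPKM sums. NDUFAF2, which helps attach the NADH module, rose from 12.7, 13 and 13 to 21.5, 19.2 and 23.8 FPKM (0.73), while NUBPL, which inserts iron-sulfur clusters, fell from 2.18, 2.06 and 2.14 to 1.8, 1.77 and 1.83 FPKM (-0.23), a fall that did not pass without DMSO replicate 1 or 3 (adjusted p = 0.0575 and 0.0518).

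The other respiratory complexes moved the same way. Of the subunits of complexes II to IV with cytochrome c, 20 of 24 tested members were higher and 0 lower (median log2 fold change 0.39, and 0.31 without replicate 3), for example COX8A from 29.3, 27.6 and 30.1 to 48.3, 40.1 and 54.8 FPKM (0.7) and CYCS, cytochrome c itself, from 37.7, 37.8 and 38.1 to 56.4, 55.9 and 65 FPKM (0.64). All 16 ATP synthase genes, of median length 2923 bases, rose (median log2 fold change 0.48, and 0.37 without replicate 3, where 14 of the 16 passed), such as ATP5G1, for the rotor ring, from 13.8, 13.2 and 13.2 to 21.2, 20 and 24.7 FPKM (0.7). Among mitochondrial ribosomal proteins, 53 of 75 tested members were higher and 1 lower (median log2 fold change 0.33, and 0.26 without replicate 3). Among cytosolic ribosomal proteins, of median length 2982 bases, 77 of 81 tested members were higher and 0 lower (median log2 fold change 0.39, and 0.3 without replicate 3), for example RPL8 from 618, 593 and 590.4 to 819, 771 and 943 FPKM (0.49). Of proteasome genes, 39 of 45 tested members were higher and 1 lower (median log2 fold change 0.37, and 0.29 without replicate 3), with PSMA7, a subunit of the core ring, from 88, 87.7 and 85.6 to 125, 128 and 151 FPKM (0.62). Scaling to equal FPKM sums shifted the median of all tested genes from 0.02 to -0.17, a shift of -0.19, and left the medians of these lists above 0: 0.24 for complex I, 0.19 for complexes II to IV, 0.28 for ATP synthase, 0.13 and 0.19 for mitochondrial and cytosolic ribosomal proteins and 0.17 for the proteasome. The complex I list then had 24 higher and 1 lower, and ATP synthase 13 and 0. Complexes II to IV had 16 and 1, and the proteasome 26 and 2. Mitochondrial ribosomal proteins had 35 and 10, and cytosolic ones 62 and 1. Under that scaling 2201 genes were higher and 6254 lower over all tested genes, in place of 4084 and 4002.

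**Figure D4:**
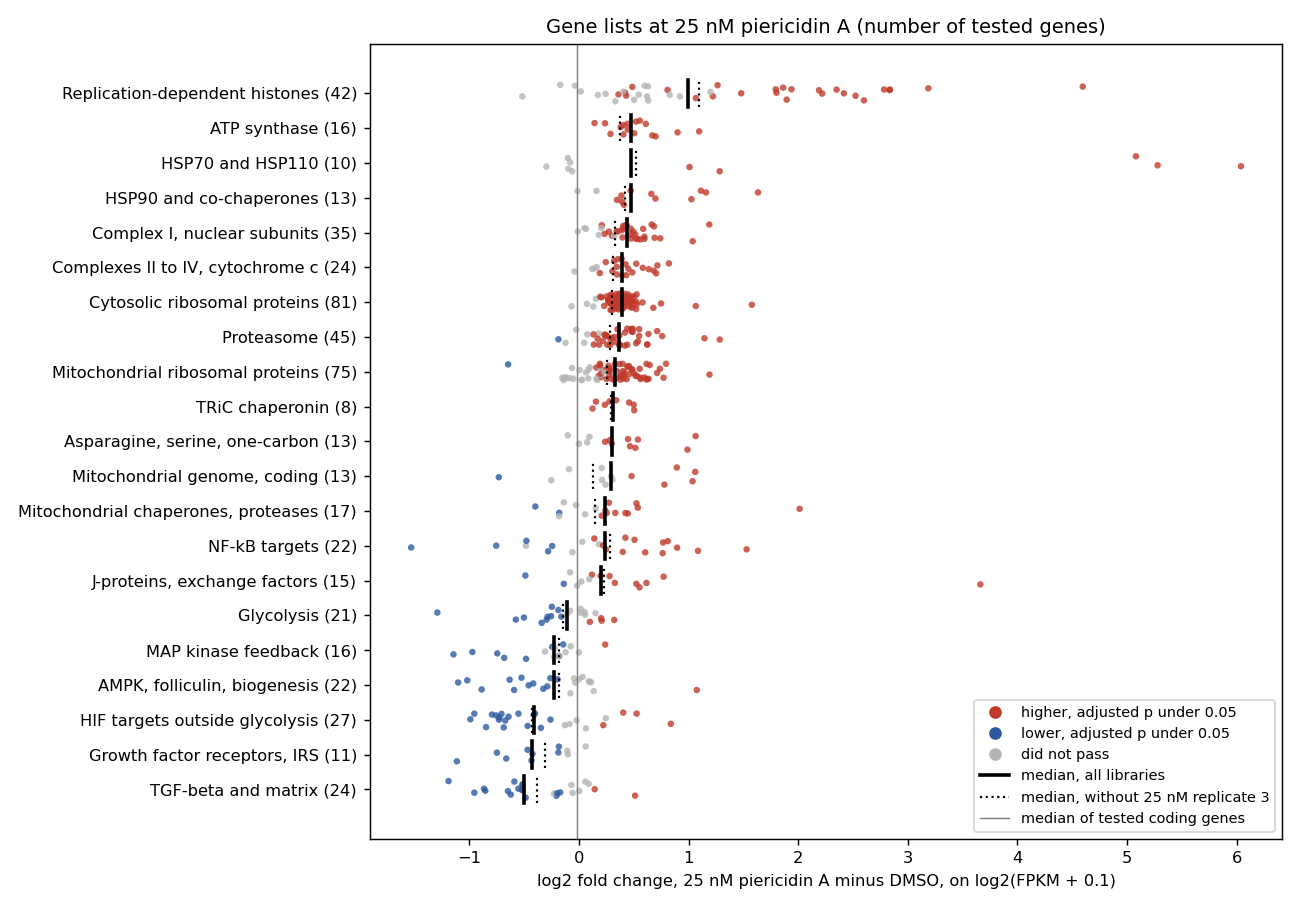
Log2 fold change at 25 nM against DMSO (horizontal axis) of each tested member of 21 gene lists, ordered by their median (solid bar, with the median without replicate 3 dotted). Red points are higher and blue lower at an adjusted p under 0.05, grey did not pass, and the thin line is the median of tested coding genes. The lists of ATP synthase and of ribosomal proteins lie almost wholly to the right of that line, and TGF-beta and HIF targets mostly to the left.

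Regulators of mitochondrial mass and energy sensing went mostly the other way. In the list of AMP-activated kinase, folliculin complex and biogenesis genes, 1 of 22 tested members was higher and 12 lower (median log2 fold change -0.23, and -0.18 without replicate 3). FNIP1 and FNIP2, the partners of folliculin, fell from 13.1, 14.2 and 13.7 to 6.87, 7.49 and 5.79 FPKM (-1.02) and from 3.3, 3.26 and 3.46 to 1.59, 1.71 and 1.25 FPKM (-1.1). PRKAG2, a nucleotide-sensing subunit of the kinase, fell from 20, 19.9 and 20.2 to 13.2, 13.4 and 13.2 FPKM (log2 fold change -0.59 ± 0.03 SE, limma adjusted p = 4.2e-06), and PPARGC1A (PGC-1alpha), a coactivator for mitochondrial genes, fell from 0.863, 0.904 and 0.81 to 0.544, 0.509 and 0.503 FPKM (-0.63). TFAM, which packs mitochondrial DNA, stood at 19.3, 19.1 and 20.1 FPKM in the DMSO libraries and 19.4, 19.5 and 18.3 FPKM at 25 nM and did not pass (-0.03). STRADA, an activator of the kinase LKB1, was the 1 member that rose, from 0.44, 0.5 and 0.551 to 1.4, 1.05 and 1.05 FPKM (1.08).

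Targets of HIF fell in large part. Outside glycolysis, 4 of 27 tested members were higher and 18 lower (median log2 fold change -0.41, and -0.42 without replicate 3). CA12, a carbonic anhydrase, stood at 36.9, 36.5 and 35.9 FPKM in the DMSO libraries and 18.3, 19.3 and 17.3 FPKM at 25 nM, the treated libraries close together and all below DMSO (log2 fold change -0.99 ± 0.05 SE, limma adjusted p = 1.9e-06). VEGFA, the angiogenic growth factor, fell from 24.5, 23.9 and 23.3 to 15.2, 14.5 and 14.2 FPKM (log2 fold change -0.71 ± 0.05 SE, limma adjusted p = 1.3e-05). EGLN1, the prolyl hydroxylase that marks HIF and is itself a target, fell from 40.8, 40.5 and 41.4 to 23.1, 24.9 and 22.7 FPKM (-0.79). LOX, a collagen crosslinker, fell from 144, 141 and 139 to 88.2, 90.8 and 77.2 FPKM (-0.73), and ANGPTL4, a lipoprotein lipase inhibitor, fell from 268, 271 and 267 to 173, 182 and 196 FPKM (-0.55). The non-coding host gene of miR-210, MIR210HG, fell from 3.8, 4.09 and 3.78 to 1.03, 0.983 and 1.52 FPKM (log2 fold change -1.67 ± 0.15 SE, limma adjusted p = 3.7e-05).

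Some targets of HIF moved against this. DDIT4 (REDD1), an inhibitor of mTORC1, rose from 245, 238 and 237 to 351, 353 and 334 FPKM (log2 fold change 0.53 ± 0.05 SE, limma adjusted p = 7.8e-05). JMJD6, an oxygen-dependent dioxygenase, rose from 4.98, 5.09 and 5.19 to 6.85, 6.37 and 7.08 FPKM (0.4). ADM, for the vasodilator adrenomedullin, rose from 127, 118 and 118 to 143, 143 and 138 FPKM (0.22, adjusted p = 0.0468), and it did not pass when any 1 of the 6 libraries was left out (adjusted p = 0.0576 to 0.126). The change of ADM was 0.023 with scaling to equal FPKM sums (adjusted p = 0.829), and it did not pass with scaling by total fragments (0.0578), a replicate block (0.0715) or no filter (0.097) either. NDUFA4L2, a complex IV associated protein chosen here after its value was seen, was the fourth riser (log2 fold change 0.84). CA9 stood at 0.752, 0.962 and 0.698 FPKM in the DMSO libraries and 1.16, 0.834 and 0.918 FPKM at 25 nM and did not pass. All of DDIT4, ADM and JMJD6 were lower at 50 nM than at 25 nM, and DDIT4 and ADM then stood below DMSO: DDIT4 was at 181, 208 and 199 FPKM (log2 difference 50 nM minus 25 nM -0.82, adjusted p = 1.1e-04) and ADM at 49.4, 62.9 and 61.1 FPKM (log2 difference 50 nM minus 25 nM -1.29, adjusted p = 1.1e-04). Over the list, 24 of 27 members were lower at 50 nM than at 25 nM and 0 higher. The letters ACGTG, the core to which HIF binds, are in the 250 bases before the start of 11 of 18 matched members (61.1%), beside 24.0% of tested coding genes, on either strand.

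**Figure D5:**
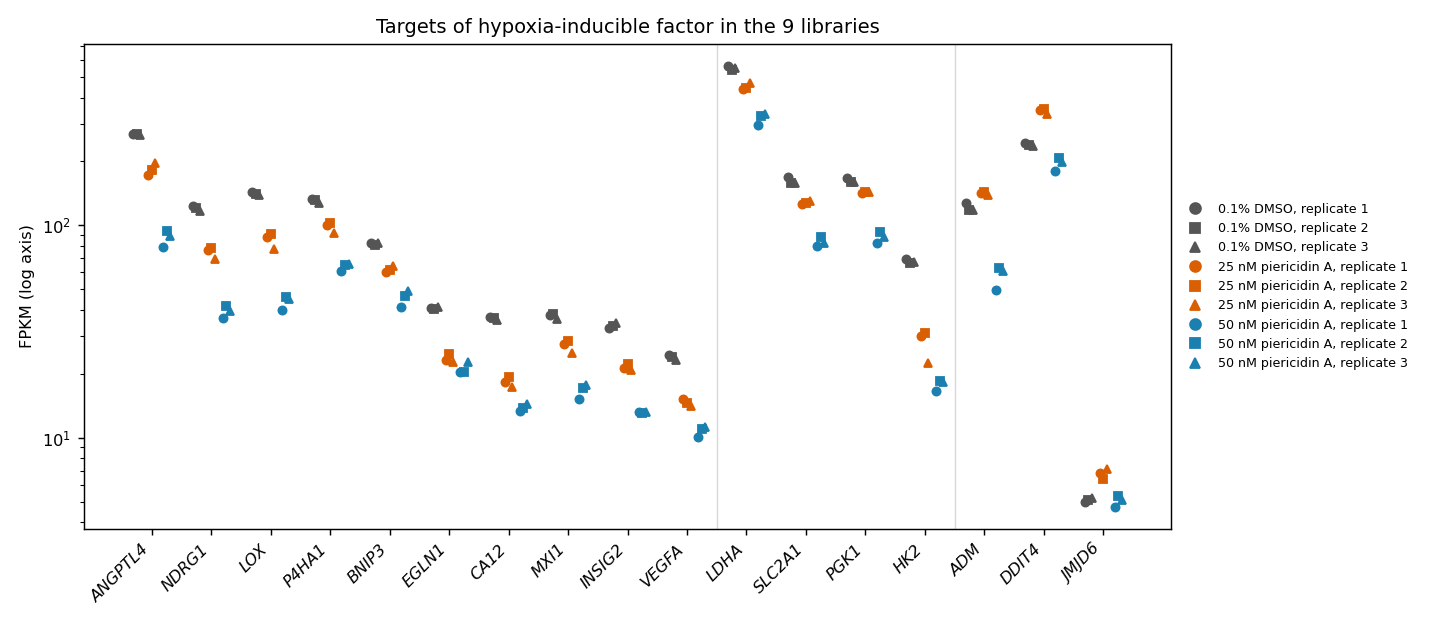
FPKM (log axis) of 17 HIF targets in the 9 libraries, with grey for DMSO, orange for 25 nM and blue for 50 nM. Vertical lines separate targets outside glycolysis that fell at 25 nM, glycolytic targets that fell, and targets that rose. ADM and DDIT4 are above DMSO at 25 nM and below it at 50 nM.

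The genes for the HIF subunits moved apart. HIF1A rose from 29, 29.6 and 29.6 to 44.4, 42.5 and 39.8 FPKM (log2 fold change 0.52 ± 0.04 SE, limma adjusted p = 2.8e-05). EPAS1, for HIF-2alpha, fell from 91.4, 87.1 and 87.3 to 54.7, 57.2 and 48.3 FPKM (log2 fold change -0.73 ± 0.06 SE, limma adjusted p = 3.3e-05), and VHL, which removes both proteins, fell from 18.5, 19.1 and 20 to 14.3, 14.6 and 14.9 FPKM (-0.39). In glycolysis, 4 of 21 tested members were higher and 10 lower (median log2 fold change -0.11, and -0.15 without replicate 3), against 1 and 15 with scaling to equal FPKM sums. HK2, the inducible hexokinase, fell from 69.5, 66.7 and 67.3 to 30.1, 31.2 and 22.5 FPKM (log2 fold change -1.29 ± 0.11 SE, limma adjusted p = 3.3e-05, and -1.14 without replicate 3). SLC2A1 (GLUT1), the glucose carrier, fell from 169, 159 and 158 to 126, 127 and 131 FPKM (-0.34), and LDHA, which makes lactate, fell from 563, 537 and 551 to 437, 444 and 467 FPKM (-0.29). LDHB, the form that favours pyruvate, rose from 388, 376 and 386 to 466, 464 and 509.6 FPKM (0.32). Of 21 glycolysis genes 20 were lower at 50 nM than at 25 nM. PDK3 and PDK1, kinases that shut pyruvate dehydrogenase, fell from 2.58, 2.58 and 2.33 to 1.17, 1.06 and 1.11 FPKM (-1.09) and from 11.6, 11.6 and 11.6 to 8.54, 8.81 and 7.9 FPKM (-0.46), and IDH3B, a subunit of the NAD-dependent isocitrate dehydrogenase, rose from 20.2, 20.1 and 21.4 to 31.3, 30.8 and 36.8 FPKM (0.67).

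Many genes of amino acid supply rose while the upper markers of the integrated stress response were divided. Of asparagine, serine and one-carbon enzymes, 9 of 13 tested members were higher and 0 lower (median log2 fold change 0.3, and 0.3 without replicate 3). With scaling to equal FPKM sums 6 were higher and 2 lower, with a median of 0.10. ASNS, asparagine synthetase, rose from 9.96, 10.2 and 9.71 to 20.6, 19.1 and 23.4 FPKM (log2 fold change 1.06 ± 0.07 SE, limma adjusted p = 6.8e-06). Its promoter carries a match to TGATGNAA, letters bound by ATF4 dimers, which 3.19% of all promoters and 1.34% of those of tested coding genes hold on either strand in the 250 bases before the start. The same 250 bases of ASNS also hold a match to the 8-letter heat shock form. The 150 bases on chr7:97872409-97872558 (GRCh38.p14, minus strand) are shown with the match in capitals.
ASNS: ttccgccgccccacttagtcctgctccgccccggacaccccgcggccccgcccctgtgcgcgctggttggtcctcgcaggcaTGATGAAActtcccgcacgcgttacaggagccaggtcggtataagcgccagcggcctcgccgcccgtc

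PSAT1, of serine synthesis, rose from 48.1, 46.5 and 46.6 to 91.6, 88.9 and 101 FPKM (log2 fold change 0.99 ± 0.05 SE, limma adjusted p = 2.0e-06), MTHFD2, of mitochondrial folate metabolism, rose from 19.1, 19.1 and 20.3 to 29.4, 28.5 and 27.3 FPKM (0.54), and PHGDH, the first enzyme of serine synthesis, rose from 17.4, 15.6 and 16.5 to 21.5, 21.9 and 24.3 FPKM (0.45). Of cytosolic aminoacyl-tRNA synthetases, 15 of 20 tested members were higher and 0 lower (median log2 fold change 0.31, and 0.26 without replicate 3), for example YARS from 11.7, 11.4 and 11.1 to 17.2, 16.5 and 19.3 FPKM (0.62). With scaling to equal FPKM sums, 10 synthetases were higher and 5 lower. Within the integrated stress response list, 7 of 20 tested members were higher and 8 lower (median log2 fold change -0.04, and -0.03 without replicate 3), against 4 and 11 with scaling to equal FPKM sums. GDF15, a secreted stress hormone, rose from 429, 407 and 409 to 637, 615 and 682 FPKM (0.63), PPP1R15A (GADD34), which restarts translation, rose from 72.3, 68.9 and 68.6 to 118, 117 and 119 FPKM (log2 fold change 0.76 ± 0.04 SE, limma adjusted p = 2.4e-06), and ATF4 rose from 113, 108 and 104 to 127, 124 and 139 FPKM (0.26). TRIB3, a pseudokinase, and SESN2, a leucine sensor, both usual ATF4 targets, fell from 18.4, 17.6 and 17.4 to 12.4, 12.8 and 13.1 FPKM (-0.48) and from 20.1, 19.1 and 18.2 to 15, 15.3 and 16.4 FPKM (-0.29). DDIT3 (CHOP), the death-linked factor of this response, stood at 28.2, 31.4 and 29.5 FPKM in the DMSO libraries and 33.5, 29.7 and 33.4 FPKM at 25 nM, overlapping (0.12, adjusted p = 0.156). With scaling to equal FPKM sums ATF4 did not pass either.

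Amino acid transporters were also divided, with 5 of 12 tested members higher and 7 lower. SLC3A2, the heavy chain shared by several transporters, rose from 33.6, 30.2 and 30.2 to 54.1, 51.4 and 58.3 FPKM (0.8), whereas its light chain SLC7A5 fell from 77.2, 72.3 and 75 to 51.6, 50.1 and 55.3 FPKM (-0.52). SLC38A2, a glutamine and alanine carrier, fell from 78.9, 75.1 and 79.7 to 37, 38.1 and 34.3 FPKM (log2 fold change -1.09 ± 0.05 SE, limma adjusted p = 1.4e-06). MAT2A, which makes S-adenosylmethionine from methionine and ATP, had the second largest coding fall, from 28.6, 29.8 and 28 to 7.29, 7.01 and 7.58 FPKM (log2 fold change -1.97 ± 0.05 SE, limma adjusted p = 1.3e-07). MAT2A overlaps GGCX in the annotation. It was higher at 50 nM, at 11.4, 10.9 and 12.3 FPKM (log2 difference 50 nM minus 25 nM 0.65, adjusted p = 1.9e-04), and still below DMSO. METTL16, the methyltransferase that controls splicing of the MAT2A message, stood at 4.59, 4.37 and 4.36 FPKM in the DMSO libraries and 4.58, 4.53 and 4.52 FPKM at 25 nM and did not pass. Of 10 tested genes in a list around the methionine cycle, which includes METTL16 and relatives of cycle enzymes, 0 were higher and 4 lower. Such relatives are among the 4. With scaling to equal FPKM sums 8 were lower. ODC1, the first enzyme of polyamine synthesis, fell from 96.4, 92.9 and 93 to 51.6, 52.3 and 52.3 FPKM (-0.85), while SRM, spermidine synthase, rose from 12.3, 12.5 and 11.8 to 18.7, 20.2 and 24.4 FPKM (0.78).

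Immediate early genes, which answer growth factors within minutes, fell more often than they rose: 7 of 25 tested members were higher and 15 lower (median log2 fold change -0.22, and -0.2 without replicate 3). FOS had the largest coding fall, from 11.2, 5.48 and 4.4 to 0.65, 0.442 and 0.371 FPKM, with DMSO replicate 1 far above the other DMSO libraries and all far above 25 nM (log2 fold change -3.51 ± 0.39 SE, limma adjusted p = 1.5e-04). FOSB and EGR1 fell from 2.54, 1.76 and 1.25 to 0.554, 0.564 and 0.679 FPKM (-1.43) and from 13.4, 10.8 and 9.36 to 6.11, 5.33 and 5.19 FPKM (-0.99), also with DMSO replicate 1 highest. BTG2, an antiproliferative gene, fell from 23.5, 24.4 and 23.9 to 6.74, 6.75 and 7.89 FPKM (log2 fold change -1.74 ± 0.06 SE, limma adjusted p = 4.8e-07), and RHOB, a short-lived GTPase, fell from 75.8, 71.9 and 70.8 to 22.8, 22.5 and 28.1 FPKM (-1.58). JUN, the partner of FOS, rose from 139.7, 132 and 129 to 216, 210.3 and 214 FPKM (log2 fold change 0.68 ± 0.05 SE, limma adjusted p = 1.1e-05), and ZFP36L1, which destroys AU-rich messages, rose from 143, 141 and 135 to 206, 208 and 190.2 FPKM (0.53). Among feedback inhibitors of receptor and MAP kinase signalling, 1 of 16 tested members was higher and 8 lower, against 0 and 15 with scaling to equal FPKM sums. SPRED1 fell from 10.9, 11.3 and 11.4 to 4.91, 5.61 and 4.62 FPKM (-1.14), DUSP6, a phosphatase of ERK, fell from 5.87, 5.55 and 4.96 to 3.45, 2.89 and 3.32 FPKM (-0.74), and DUSP1, a phosphatase of stress kinases, rose from 215, 191 and 203 to 245, 225 and 249 FPKM (0.24), which did not pass with scaling to equal FPKM sums. EGFR, the epidermal growth factor receptor, fell from 126, 123 and 127 to 63.7, 65.1 and 46.7 FPKM (log2 fold change -1.11 ± 0.11 SE, limma adjusted p = 7.5e-05, and -0.96 without replicate 3), and of the 11 receptor and IRS genes 8 were lower and 0 higher. These genes have a median length of 8658 bases, within the longest quartile, whose own median was -0.21.

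Of NF-kB target genes, 13 of 22 tested members were higher and 5 lower (median log2 fold change 0.23, and 0.28 without replicate 3), against 9 and 7 with scaling to equal FPKM sums. CCL2, a monocyte chemokine, rose from 28.3, 30.2 and 30.1 to 59.4, 61.6 and 67.7 FPKM (log2 fold change 1.09 ± 0.06 SE, limma adjusted p = 3.1e-06), CXCL2 rose from 214, 217 and 211 to 351, 355 and 387 FPKM (0.77) and CXCL8 (interleukin 8) rose from 637, 652 and 653 to 962, 997 and 996 FPKM (0.6). NFKBIA, the inhibitor that ends the response, rose from 108, 105 and 102 to 178, 171 and 187 FPKM (log2 fold change 0.76 ± 0.05 SE, limma adjusted p = 5.6e-06). LCN2 (lipocalin 2), an iron-carrier binder of injured tubules, went the other way, from 8.83, 8.51 and 8.02 to 2.38, 2.98 and 3.29 FPKM (log2 fold change -1.53 ± 0.11 SE, limma adjusted p = 1.2e-05), as did SOD2, the mitochondrial superoxide dismutase, from 105, 109.7 and 110.2 to 62.5, 71 and 59.3 FPKM (-0.75).

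SOD2 was also the 1 fallen gene among peroxiredoxins, thioredoxins and related enzymes, where 15 of 21 tested members were higher (median log2 fold change 0.33, and 0.3 without replicate 3). TXN (thioredoxin) rose from 145, 146 and 146 to 207, 200.2 and 254 FPKM (0.59), PRDX1, a cytosolic peroxidase, rose from 154, 145 and 154 to 199, 197 and 224 FPKM (0.45), and SOD1 rose from 77.4, 77.2 and 76.7 to 105, 103 and 126 FPKM (0.52). Of NRF2 and its targets, 12 of 18 tested members were higher and 1 lower, among them NQO1, a quinone reductase, from 68.8, 66.6 and 67.4 to 92.5, 92 and 104 FPKM (0.51) and GCLM, of glutathione synthesis, from 7.76, 7.6 and 7.87 to 10.3, 10.4 and 10.2 FPKM (0.41). HMOX1, heme oxygenase and a sensitive oxidative stress gene, stood at 6.14, 6.47 and 6.48 FPKM in the DMSO libraries and 7.17, 6.27 and 7.39 FPKM at 25 nM, overlapping (0.12, adjusted p = 0.162). With scaling to equal FPKM sums the median of the NRF2 list was near 0, with 5 higher and 3 lower.

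Targets of p53 moved both ways: 9 of 28 tested members were higher and 14 lower (median log2 fold change -0.13, and -0.13 without replicate 3). When sums of FPKM were equal, 3 were higher and 19 lower. MDM2, the ligase that removes p53, fell from 32.2, 32.3 and 33.1 to 18.2, 19.3 and 16.6 FPKM (log2 fold change -0.85 ± 0.06 SE, limma adjusted p = 1.7e-05), and ZMAT3 and TP53INP1, both p53 targets, fell from 14.1, 14.5 and 14.6 to 6.27, 6.23 and 5.44 FPKM (-1.26) and from 20.3, 19.4 and 20.5 to 10.1, 10.7 and 9.2 FPKM (-1.0). CDKN1A (p21), the cell cycle inhibitor, rose from 187, 181 and 176 to 216, 208 and 224 FPKM (0.25), and BAX, a pore-former of apoptosis, rose from 51.8, 51.2 and 49.4 to 70.8, 70.6 and 83.9 FPKM (0.56). CDKN1A did not pass with scaling to equal FPKM sums. BCL2L11 (BIM), which activates BAX, fell from 4.06, 4.03 and 4.3 to 1.85, 1.91 and 1.51 FPKM (-1.2), and MCL1, which restrains it, fell from 67.5, 68 and 66.2 to 44.8, 48 and 41.8 FPKM (-0.59). Of mitosis genes, 27 of 40 tested members were higher and 2 lower (median log2 fold change 0.19, and 0.21 without replicate 3), for example PTTG1, securin, from 45.5, 49.1 and 46.5 to 73, 72.4 and 82.6 FPKM (0.69) and CKS1B, a cyclin-dependent kinase subunit, from 52.1, 49.9 and 51 to 72, 71 and 77.8 FPKM (0.53). ASPM, a long spindle-pole gene, fell from 18.1, 18.4 and 18.8 to 10.6, 10.8 and 7.49 FPKM (-0.95, and -0.78 without replicate 3). The direction of the mitosis list depended on the scaling, as its median was -0.01 with 8 higher and 8 lower when sums of FPKM were equal.

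Genes of TGF-beta signalling and matrix were mostly lower. In this list, of median length 7796 bases, 2 of 24 tested members were higher and 16 lower (median log2 fold change -0.5, and -0.38 without replicate 3). Over all tested genes 25.8% were lower. In the longest quartile of coding genes, where this median length lies, 1476 of 2930 were lower, with a median of -0.21. PMEPA1, a feedback target, fell from 16.4, 15.9 and 16 to 8.31, 8.86 and 9.23 FPKM (log2 fold change -0.87 ± 0.04 SE, limma adjusted p = 2.4e-06), ITGB3, an integrin, fell from 6.22, 5.59 and 5.92 to 2.56, 2.91 and 2.18 FPKM (-1.19), TGFB2, a ligand, fell from 22.3, 21.9 and 21.7 to 15.9, 16.1 and 12.1 FPKM (-0.59), and SMAD3, the signal carrier, fell from 69.6, 69.7 and 70.6 to 49.3, 51 and 47 FPKM (-0.51). TIMP1, a protease inhibitor and a short gene, rose from 35.5, 33.8 and 33.9 to 46.4, 45 and 56.7 FPKM (0.51). Of YAP and TEAD genes, 4 of 21 tested members were higher and 16 lower (median log2 fold change -0.26, and -0.21 without replicate 3): CTGF fell from 78.8, 80.9 and 80.4 to 52.1, 53.8 and 58.1 FPKM (-0.55), while CYR61 and ANKRD1, also standard targets, rose from 581, 555 and 548 to 658, 635 and 704 FPKM (0.24) and from 7.73, 8.38 and 7.98 to 14.5, 13.6 and 15.1 FPKM (0.83). CYR61 did not pass with scaling to equal FPKM sums. CDH1 (E-cadherin), the epithelial adhesion protein, was low and fell from 3.44, 3.68 and 3.38 to 1.17, 1.05 and 1.05 FPKM (log2 fold change -1.6 ± 0.09 SE, limma adjusted p = 3.1e-06), and its mesenchymal counterpart CDH2 also fell, from 68.7, 67.9 and 70 to 56.2, 61.4 and 54.8 FPKM (-0.26).

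ABCA1, which exports cholesterol, fell from 13.1, 12.9 and 14 to 4.27, 4.16 and 3.01 FPKM (log2 fold change -1.8 ± 0.11 SE, limma adjusted p = 6.8e-06, and -1.64 without replicate 3). Of the genes of cholesterol synthesis and the SREBP2 pathway, 14 of 26 tested members were higher and 4 lower (median log2 fold change 0.19, and 0.2 without replicate 3). IDI1 and INSIG1 rose from 3.49, 3.42 and 3.45 to 5.62, 5.21 and 5.54 FPKM (0.64) and from 16.6, 16.7 and 16.1 to 23.7, 22.7 and 21 FPKM (0.44). When sums of FPKM were equal this list had a median near 0, with 8 higher and 10 lower.

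Several classes of non-coding genes had more risen than fallen members. Of 832 tested antisense genes 193 were higher and 84 lower, of 807 pseudogenes 185 and 62, and of 194 sense-intronic genes 61 and 13. The shares of antisense genes and pseudogenes that rose were below the 26.3% of all tested genes. Sense-overlapping genes went the other way, with 5 higher and 9 lower of 35. Intergenic long non-coding RNAs were balanced, with 89 and 79 of 598. Genes of these classes could also pass the filter through the treated libraries alone. MALAT1, an abundant nuclear RNA, stood at 17.5, 20.6 and 19.1 FPKM in the DMSO libraries and 75, 60.4 and 98.4 FPKM at 25 nM, with replicate 3 highest and no overlap (log2 fold change 2.0 ± 0.24 SE, limma adjusted p = 2.5e-04, and 1.82 without replicate 3). MEG3, a maternally expressed imprinted RNA, rose from 4.45, 4.96 and 4.48 to 12.1, 10.9 and 11.8 FPKM (log2 fold change 1.3 ± 0.06 SE, limma adjusted p = 2.0e-06), and NEAT1, the scaffold of paraspeckles, rose from 13.5, 16.3 and 14.9 to 21.4, 22.3 and 22.8 FPKM (0.57). All of them were higher still at 50 nM (log2 differences 50 nM minus 25 nM 0.77, 0.96 and 1.3). LINC00657 (NORAD), a cytoplasmic RNA that binds Pumilio proteins, fell from 66.5, 68.3 and 68.5 to 34.7, 37.4 and 27.1 FPKM (-1.05).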

How the data were processed

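RNA-seq of 9 libraries of ACHN cells was used, 3 each of 0.1% DMSO, 25 nM and 50 nM piericidin A. The authors deposited FPKM values for 30673 genes, each library in its own column. The genome build was hg38, per the submitters' processing notes. They also deposited a log2 table of the same FPKM values, with no constant added, that keeps 18859 genes with no 0 in any library, as the values show. The aligner, counter and gene annotation are not given in the sources used here. FPKM times gene length gave whole fragments, a count from which depth and shares of fragments were computed.

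Genes with at least 0.5 FPKM in 3 of 9 libraries (15541) were fitted in limma 3.58.1 (R 4.3.3) on log2(FPKM + 0.1), with group as the only term over all 9 libraries, trended and robust variance, and Benjamini-Hochberg adjustment over all tested genes. Fold changes on this scale understate the change of low genes. List members were read from that fit. Shares were compared by a two-sided exact permutation test. The procedure was tested on simulated data.

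The genes and lists were chosen with earlier results of these data known. Genes were named by rule: the 12 largest coding rises and falls with a mean of at least 2 FPKM and no overlap, 6 of each among other classes, and, for each list, its key members, the 4 called members of smallest p and 2 called in the other direction, and the 8 genes on each side with the widest gap of replicate 3. Alternatives were another pseudocount, filter, scaling, table or model, a replicate block and each library left out. Promoters were matched by symbol to RefSeq sequences of GRCh38.p14, with only the first listed start site of each symbol kept. Overlapping genes cannot be separated, since strand is not stated. Some genes of these lists are not reported by name here.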

Additional observations from a re-analysis of the deposited data

How the results depend on the processing

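The counts of 4084 higher, 4002 lower and 5205 genes that differed between the doses stayed within 1.5 times under every alternative run, except with scaling to equal sums of FPKM. That scaling gave 2201 higher and 6254 lower genes, and 551 lower by at least 2-fold. Counts of 2-fold changes moved most: a pseudocount of 1 FPKM gave 146 higher and 79 lower, a filter of 2 FPKM gave 170 and 127, and the deposited log2 table gave 553 lower. Leaving out 1 library at a time gave 3473 to 3952 higher and 3323 to 3941 lower genes, 526 to 600 and 221 to 328 of them by at least 2-fold, and 4175 to 5829 that differed between the doses. Replicate numbers did not pair the samples, with correlations of deviations of same-numbered DMSO and 25 nM libraries of -0.0201, 0.00196 and -0.0469, and a fit with the replicate number as a block gave 3883 higher and 3757 lower genes.

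Of the 160 genes named in the text that passed, 13 did not pass under at least 1 alternative, most of them with scaling to equal sums of FPKM, and 0 of the called genes changed sign. The log2 fold changes that changed sign had not passed with the deposited scaling. With scaling to equal sums they were -0.0844 for DDIT3, -0.176 for DNAJB6, -0.0766 for HMOX1, -0.0764 for ACTA2, -0.1001 for COL1A1 and -0.163 for METTL16, of which DNAJB6 and METTL16 then passed as lower. With scaling by total fragments DNAJB6 was at -0.00571. Leaving out 1 library gave -0.123 to 0.0540 for HSPA4L and -0.0405 to 0.0189 for NDUFS1.

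The cause of each of these changes was not tested. Depth was about even across the libraries, and genes with few fragments, such as HIST2H3D, have folds of low precision.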

Other observations

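Genes of iron handling and of the circadian clock were also examined. TFRC, the transferrin receptor, fell from 27.5, 26.1 and 26.4 to 14.9, 16.5 and 13.1 FPKM (log2 fold change -0.85 ± 0.07 SE, limma adjusted p = 3.6e-05), IREB2, an iron sensor that binds messages such as that of TFRC, fell from 8.52, 8.87 and 8.66 to 4.64, 5.06 and 3.98 FPKM (-0.92), and FTH1, the ferritin heavy chain, fell from 214, 223 and 228 to 169.9, 165 and 201 FPKM (-0.32). Of 12 iron genes 2 were higher and 7 lower. Of 15 clock genes 2 were higher and 8 lower, with PER1 rising from 9.03, 8.25 and 7.93 to 11.4, 11.3 and 9.97 FPKM (0.37) and PER2, its paralog, falling from 1.26, 1.03 and 1.12 to 0.571, 0.63 and 0.374 FPKM (-1.0). BHLHE41, a repressor in the clock, fell from 17.3, 18.2 and 18.3 to 8.75, 9.17 and 8.81 FPKM (log2 fold change -1.0 ± 0.06 SE, limma adjusted p = 6.5e-06).

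Genes of transcription elongation and of splicing were counted too. Of 10 genes around P-TEFb, the kinase that releases paused RNA polymerase II, 1 was higher and 6 lower. CCNT1, its cyclin, fell from 15.8, 15.4 and 15.2 to 9.97, 9.91 and 7.78 FPKM (-0.75), and HEXIM1, its inhibitor, fell from 33.5, 31.3 and 32.8 to 22.8, 21.9 and 23.6 FPKM (-0.52). Of 9 CLK, DYRK and SRPK kinases 3 were higher and 4 lower, and of 14 SR splicing factors and TRA2 proteins 4 and 5. CLK1 and CLK2, kinases of splicing factors, rose from 11.2, 12.1 and 12.3 to 17.2, 15.2 and 15.5 FPKM (0.42) and from 11.3, 11.7 and 11.8 to 15.6, 13.6 and 16.5 FPKM (0.38), and both were higher at 50 nM than at 25 nM (log2 differences 0.47 and 0.69). TXNIP, a thioredoxin-binding protein that responds to sugar, rose from 4.68, 5.08 and 5.59 to 7.24, 7.5 and 7.19 FPKM (0.51), while its relative ARRDC3 fell (-1.54). With scaling of the libraries to equal FPKM sums, the rises of PER1, CLK1 and CLK2 did not pass.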
